A study of Rattus norvegicus with 16 samples.

Results

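The left ventricles of 8 High Capacity Runner (HCR) rats were compared with those of 8 Low Capacity Runner (LCR) rats, with training state as a covariate. All 16 arrays of the series entered the comparison, and all 31042 probe sets other than the 57 Affymetrix controls were tested. The account below describes the genes whose line difference was alike in sedentary and in trained rats. The 2 lines were bred by artificial selection from the N:NIH stock, on a treadmill test given at an age of about 11 weeks, and the rats belonged to generation 16. All were females of about 7 months, so each line carries its own selected background and no introduced allele. The HCR sedentary group held rats 3, 4, 5 and 6, the HCR trained group rats 3, 4, 5 and 6, the LCR sedentary group rats 2, 3, 5 and 6 and the LCR trained group rats 1, 2, 3 and 4. Trained rats ran uphill at 25 degrees for 1.5 hours on 5 days per week over 8 weeks, with intervals of 8 minutes at 85 to 90% of maximal oxygen uptake and 2 minutes of recovery. Sedentary rats were of matched age. RNA came from pieces of whole ventricle, which hold cardiomyocytes, fibroblasts, vessels and blood cells together, and each rat gave 1 Affymetrix RAE 230 2.0 array.

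Selection for running capacity sorts many alleles at once, and alleles can also become fixed by drift in a closed line, so a difference between lines may concern genes with no part in endurance. The heart muscle cell draws most of its ATP from fatty acids burnt in mitochondria, and renews its contractile proteins through chaperones, the ubiquitin-proteasome system and autophagy. Genes of these systems, of the matrix and of immune cells were therefore read as lists beside the genes of largest difference.

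Levels are log2 expression values made by the authors with the robust multiarray average (RMA), and a difference is the fitted HCR minus LCR value on that scale, with its standard error after ±. A probe set was called at a limma p-value of 0.05 or less after Benjamini-Hochberg adjustment over all 31042. Array medians lay between 5.85 and 5.95. The interquartile range of an array's values was 2.07 ± 0.0781 (SD, n = 8) in HCR and 2.16 ± 0.0674 (SD, n = 8) in LCR, a difference of -0.0865 (two-sided exact permutation within training state, p = 0.0363). It came mainly from sedentary rats, where the difference was -0.155, against -0.018 in trained rats. The female-specific RNA Xist read low in HCR sedentary rat 5, at 4.54, while the other 15 rats ran from 7.56 to 10.34, and its 3 other probe sets were low in that rat too. The Y-linked gene Eif2s3y was at 3.53 in that rat and at 3.33 to 3.5 elsewhere. The rat is called here by its label, and results without it are given below.

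HCR and LCR ventricles differed at 952 probe sets, 3.07% of those tested. Of these, 344 were higher in HCR (1.11%) and 608 were lower (1.96%). Without adjustment 7192 had a p under 0.05. By gene, 649 of the 14217 genes with a named probe set were called (4.56%), 207 higher (1.46%) and 442 lower (3.11%). Most differences were small, with a median absolute size of 0.26 in called probe sets and 0.07 in all, and 78 called probe sets reached 1.5-fold and 25 reached 2-fold. The lower calls lay on brighter probe sets, with a median mean level of 7.66 against 5.90 for all and 5.95 for the higher calls. Only 12.7% of the lower calls were below the median level of all probe sets, against 48.0% of the higher calls. The narrower spread of HCR arrays moves with lower values on bright probe sets, and its part in the calls was examined only by the alternatives that follow. With each array's interquartile range as a covariate 81 probe sets were called, 36 higher and 45 lower. After quantile normalization of the summarised values 646 were called, 43.5% of them higher, against 36.1% in the values as deposited and 17.0% of the 1318 called after centring each array on its median. The count also moved by over 1.5 times when certain rats were left out. It was 352, 415 and 589 without HCR sedentary rat 4, 5 or 6, then 1532 and 538 without HCR trained rat 3 or 6. It was 505, 407 and 398 without LCR sedentary rat 3, 5 or 6, and 2795, 509 and 469 without LCR trained rat 2, 3 or 4. None of the 952 changed sign under any alternative run. Of 121 called genes followed by name through the alternatives, 30 were still called with the interquartile range as a covariate, 78 after quantile normalization and 68 in every fit that left out a rat.

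A called probe set was counted as alike where its differences in sedentary and in trained rats had the same sign and the smaller was at least 0.5 of the larger. This is a description of sizes and not a test. Alike were 708 called probe sets, 2.28% of those tested and 74.4% of those called, 268 higher and 440 lower, standing for 156 higher and 327 lower genes. Among all probe sets, called or not, 25.0% met the same rule of sizes. All 952 called probe sets had the same sign in both states, against 61.8% of all probe sets, which the test itself favours because it averages the states. Within states alone 1549 probe sets were called in sedentary rats (4.99%) and 30 in trained rats (0.0966%), and both of these comparisons share rats with the joint one. The difference between states was tested for every probe set and called for 0 by limma (lowest adjusted p = 0.251), with 3068 at an unadjusted p under 0.05. Of the 952 called probe sets 114 were among those 3068, and of the 708 alike ones 2 were. The last count is kept low by the rule of sizes itself, which selects small differences between states, and is no separate evidence. Of the 244 called probe sets that were not alike, 210 had the larger difference in sedentary rats and 34 in trained rats.

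**Figure D1:**
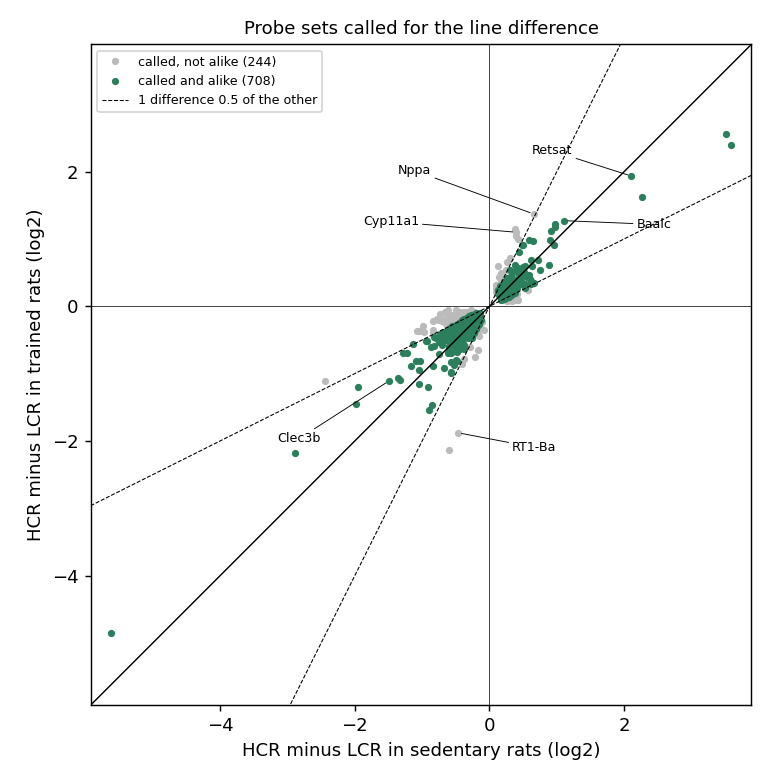
Each point is a probe set called for the line difference, with its HCR minus LCR difference (log2) in 4 against 4 sedentary rats on the x axis and in 4 against 4 trained rats on the y axis. The 708 alike probe sets (green) lie between the dashed lines, where the smaller difference is 0.5 of the larger, and the 244 others (grey) lie mostly on the side of the larger sedentary difference.

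Retsat, which encodes retinol saturase, an enzyme that reduces vitamin A alcohol to dihydroretinol, had the largest named difference above. In HCR it read 11.69, 11.51, 11.52 and 11.60 in sedentary rats and 11.60, 11.60, 11.81 and 11.66 in trained rats. In LCR it read 10.35, 9.35, 8.87 and 9.32 in sedentary rats and 9.14, 11.12, 9.64 and 9.02 in trained rats. The 8 HCR rats sat close together above all 8 LCR rats, of which LCR trained rat 2 came nearest. Retsat was 4.06-fold higher in HCR (2.02 ± 0.24, adjusted p = 0.000621), by 2.11 in sedentary and 1.93 in trained rats. The difference between states was -0.17 with a 95% interval from -1.22 to 0.88. Of the 23 measured genes of retinoid handling Retsat alone was called (4.35% of the list against 4.56% of all genes). The list's median difference was 0.02 against -0.01 for all genes.

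Baalc, a membrane-anchored protein first described in brain and acute leukaemia, was 2.28-fold higher (1.19 ± 0.12, adjusted p = 7.78e-05). HCR sedentary rats read 6.85, 6.96, 7.75 and 7.21 and HCR trained rats 7.56, 7.32, 7.65 and 7.18. In LCR the sedentary rats were at 5.88, 6.19, 5.97 and 6.28 and the trained rats at 6.32, 6.33, 5.94 and 6.04. The lines did not overlap, and both states gave a similar size (1.11 sedentary, 1.27 trained).

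Nfe2l1 encodes an endoplasmic reticulum-anchored transcription factor known for inducing proteasome genes. HCR sedentary rats read 10.89, 8.91, 10.62 and 10.03 and HCR trained rats 10.20, 10.28, 10.73 and 10.02, while the 8 LCR rats lay between 8.91 and 9.30. Only HCR sedentary rat 4 was as low as the LCR rats. Nfe2l1 was 2.11-fold higher (1.08 ± 0.20, adjusted p = 0.0107), and 1.27 higher without that rat. Its 2 dimmer probe sets differed by 0.43 and 0.18 without a call.

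Other genes higher in both states came from lipid, respiratory chain and excitation functions. Abca1, the transporter that exports cholesterol to lipoproteins, had HCR levels from 5.48 to 7.20 (median 6.73) and LCR levels from 5.27 to 5.67 (median 5.46). Its difference was 1.02 ± 0.22 (adjusted p = 0.0209). On a brighter probe set it was -0.18 without a call, so the probe sets of Abca1 disagree. Uqcc6, needed to assemble complex III of the respiratory chain, read 8.80 to 9.26 in HCR (median 8.97) and 7.43 to 8.59 in LCR (median 8.09). Its difference was 0.93 ± 0.17 (adjusted p = 0.0107) with no overlap of the lines. LCR values of Uqcc6 fell into a lower and a higher set in both states, at 7.43, 7.48, 8.57 and 8.56 in sedentary rats and 8.59, 8.43, 7.60 and 7.75 in trained rats. Fgf12, an intracellular protein that binds voltage-gated sodium channels, was higher by 0.78 ± 0.14 (adjusted p = 0.0100) without overlap, and another of its probe sets by 0.81. The dimmest probe set of Fgf12 differed by 0.09 without a call. Chrna1, which encodes the ligand-binding subunit of the receptor at the neuromuscular junction, was higher by 0.52 ± 0.07 (adjusted p = 0.000923), with HCR rats at 5.35 to 5.82 and LCR rats at 4.98 to 5.23.

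The remaining named genes of largest shared rise were Nt5dc1 (0.75), the secreted phospholipase Pla2g12a (0.70), the splicing factor Cwc25 (0.70), the synaptic scaffold Rims1 (0.65), the vesicle motor Myo5b (0.62), Pierce1 (0.54), Lhfpl2 (0.53) and the tight junction scaffold Patj (0.52). The lines did not overlap at Rims1, Myo5b and Pierce1. Rims1 ran from 5.47 to 6.15 in HCR and from 4.65 to 5.26 in LCR. The calls of Pla2g12a and Patj held in 6 and 4 of the 16 fits that left out a rat, and those of the others named here in all 16.

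**Figure D2:**
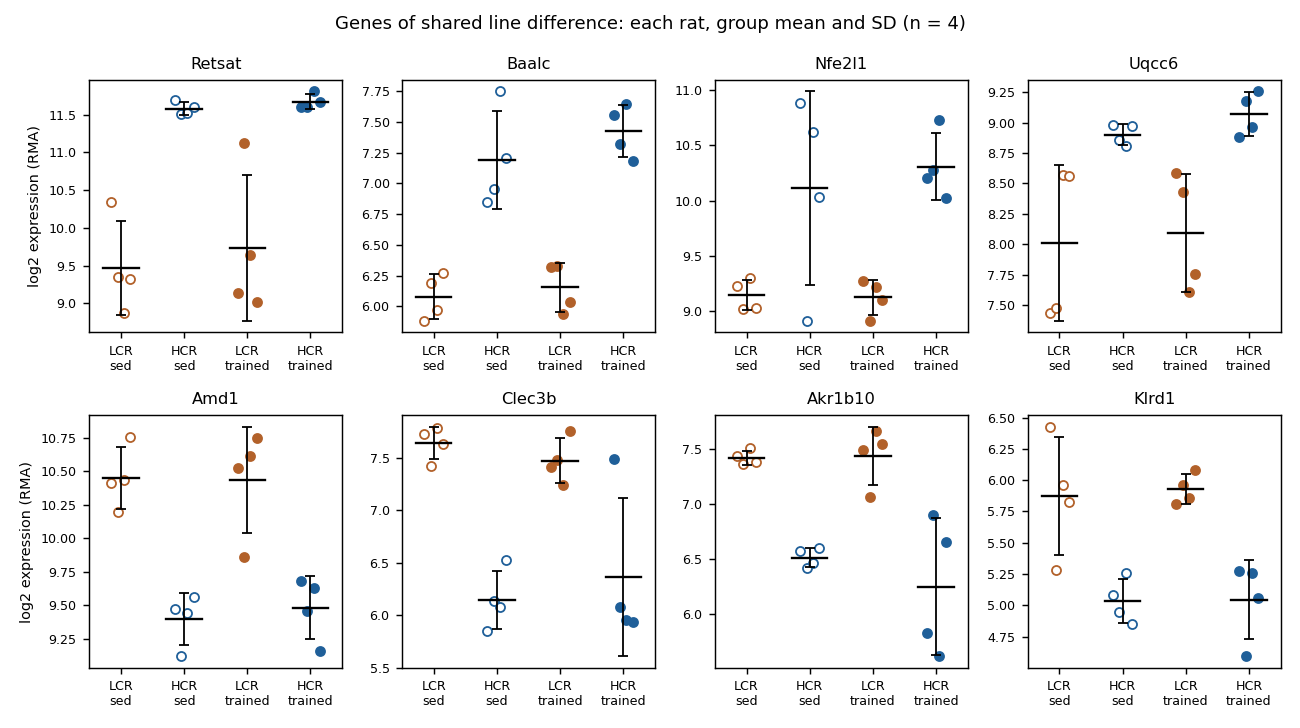
Log2 expression (RMA) of 8 genes with a shared line difference in each rat, in panels with their own y axes. Open points are sedentary and filled points trained rats, blue for HCR and brown for LCR, with bars at the group mean and its SD (n = 4). Retsat, Baalc, Nfe2l1 and Uqcc6 lie higher in HCR and Amd1, Clec3b, Akr1b10 and Klrd1 lower in both states, with LCR trained rat 2 high for Retsat and HCR trained rat 3 high for Clec3b.

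Among genes of lower level in HCR, that of tetranectin (Clec3b), a secreted lectin that binds plasminogen, read 5.85, 6.14, 6.07 and 6.52 in HCR sedentary rats and 7.49, 6.07, 5.95 and 5.93 in HCR trained rats. Levels in LCR were 7.72, 7.42, 7.78 and 7.63 in sedentary and 7.41, 7.48, 7.24 and 7.76 in trained rats. HCR trained rat 3 lay inside the LCR range and the other 7 HCR rats below it. Clec3b was 2.47-fold lower in HCR (-1.30 ± 0.18, adjusted p = 0.00176), -1.49 without HCR trained rat 3, and its other probe set differed by -0.63 with a call. Of 12 measured genes of the plasminogen system Clec3b and the plasminogen receptor gene Plgrkt (-0.26 ± 0.07, adjusted p = 0.0449) were called. That is 16.7% of the list against 4.56% of all genes. The call of Plgrkt held in 3 of the 16 fits that left out a rat.

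Amd1, the S-adenosylmethionine decarboxylase that feeds spermidine and spermine synthesis, was 2.00-fold lower (-1.003 ± 0.12, adjusted p = 0.000571). HCR rats read 9.12 to 9.68 (median 9.46) and LCR rats 9.86 to 10.76 (median 10.48), without overlap. It was the 1 called gene of 16 in polyamine metabolism (6.25% of the list against 4.56% of all genes). Akr1b10, an aldo-keto reductase of reactive aldehydes, was lower by 1.05 on the log2 scale (-1.05 ± 0.15, adjusted p = 0.00176). HCR sedentary rats read 6.57, 6.42, 6.46 and 6.60, HCR trained rats 5.83, 6.90, 5.61 and 6.66, and LCR rats 7.06 to 7.66. Its dimmer probe set differed by 0.05 and was not called. Dpy19l4, a relative of the C-mannosyltransferases, differed by -1.10 ± 0.14 (adjusted p = 0.000815), from 5.29 to 6.40 in HCR and from 6.64 to 7.34 in LCR.

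Sqor, the mitochondrial enzyme that oxidises hydrogen sulfide and passes its electrons to coenzyme Q, read 7.74, 7.86, 7.97 and 8.31 in HCR sedentary rats and 7.80, 7.78, 7.96 and 7.80 in HCR trained rats. LCR rats read 8.24 to 9.09 (median 8.74), and only HCR sedentary rat 6 and LCR sedentary rat 2 overlapped. The difference was -0.80 ± 0.11 (adjusted p = 0.00106). Acsf2, an acyl-CoA synthetase of medium-chain fatty acids, differed by -0.71 ± 0.09 (adjusted p = 0.000947), with medians of 10.16 in HCR and 10.90 in LCR. Map1a, a microtubule-associated protein, differed by -0.96 ± 0.14 (adjusted p = 0.00273), by -1.22 in sedentary and -0.70 in trained rats. Sphkap, an anchor of protein kinase A that is abundant in heart, differed by -0.85 ± 0.18 (adjusted p = 0.0202), and another of its probe sets by -0.47 with a call. Slpi, a secreted inhibitor of leukocyte proteases, differed by -0.77 ± 0.17 (adjusted p = 0.0230), with 6.63 to 7.48 in HCR and 7.51 to 8.94 in LCR. Nap1l5 (-0.99), LOC102554789 (-0.95) and the interferon-inducible GTPase gene Ifgga2l1 (-0.70) completed the lower genes outside the immune groups described below. Nap1l5 was at 9.32 in LCR sedentary rat 6 and at 7.67 or less in every other rat, and its call held in 9 of the 16 fits that left out a rat.

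Across all 16 rats the lines did not overlap at 112 called probe sets, against 119 of all probe sets (0.383%), which stand for 33 genes higher and 41 lower in HCR. Within both training states the lines were separate at 201 called probe sets, against 218 of all (0.702%). A further reading asked which calls held in all 24 alternatives that kept every probe set, and 62 probe sets did, 23 higher and 39 lower, with 41 named genes. Of the genes already described these were Retsat, Baalc, Nfe2l1, Fgf12, Rims1, Chrna1, Clec3b, Amd1, Akr1b10, Dpy19l4, Sqor and Acsf2. Chosen after their values were seen, members of that set outside the naming rule include the aminopeptidase Enpep (0.29), which acts on angiotensin II, the reticulon Rtn1 (0.36), the glutamate transporter Slc1a1 (0.40), the organic anion exporter Abcc3 (0.49), the decapping enzyme Dcps (0.31) and Zfp318 (0.46), all higher in HCR. Bean1 of that set was higher by 0.51 but not alike, with 0.30 in sedentary and 0.71 in trained rats (unadjusted p of the difference between states = 0.000895, adjusted 0.475, limma). Lower were Emc2 (-0.44), a subunit of the endoplasmic reticulum membrane protein complex, the ubiquitin ligase Ube3a (-0.32), the metallopeptidase Ermp1 (-0.40), Hook1 (-0.37), Tmem123 (-0.54), Itgb3bp (-0.40) and Mcts2 (-0.41). A pair of LIM-domain genes of the actin cytoskeleton differed in opposite directions, Pdlim1 higher by 0.42 and Pdlim3, a Z-disc protein, by -0.53.

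Genes of protein turnover had mostly lower values in HCR in both states. Of 33 measured proteasome genes 32 had a lower value in HCR on their brightest probe set, against 7414 of all 14217 genes, and 6 were called, all lower and alike (Psmc6, Psmd11, Psmb3, Psmb4, Psma1 and Psmc2). That is 18.2% of the list against 4.56% of all genes, and the median difference was -0.16, with -0.14 in sedentary and -0.15 in trained rats, against -0.01 for all genes. The list was chosen with earlier results of these data known, and nothing particular to it is read from the count. Psmb3, a beta subunit of the 20S core, read 10.19 to 10.37 in HCR (median 10.29) and 10.37 to 10.67 in LCR (median 10.49), a difference of -0.22 ± 0.05 (adjusted p = 0.0217). Psmc6, an ATPase of the 19S cap, differed by -0.28, Psmd11 of the lid by -0.22 and Psmb4 of the core by -0.21. Dimmer probe sets of Psmd11 differed by -0.05 and 0.03 without a call. Those of Psmc6 differed by -0.22 without a call and by -0.36 with a call. HCR sedentary rat 3 and LCR trained rat 2 crossed over at Psmc6, at 8.54 and 8.27, and its call held in 5 of the 16 fits that left out a rat. After quantile normalization 1 proteasome gene was called and with the interquartile range as a covariate 0, and leaving out single rats gave from 2 lower calls (without HCR sedentary rat 4 or 5, HCR trained rat 6, LCR sedentary rat 6 or LCR trained rat 3) to 17 (without LCR trained rat 2, where 1 gene was called higher). The spread of array values thus moved with this list, and its part in the result was not tested further. The activator subunit Psme2, chosen after its values were seen, differed by -0.30 (adjusted p = 0.0434), with a call in 3 of those 16 fits.

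Chaperone genes gave a similar picture. Of 30 measured genes of heat shock and protein folding 27 were lower, against 7414 of all 14217 genes. In this list 5 genes were called lower and none higher (16.7% against 4.56% of all genes), with a median of -0.14. Bag3, the co-chaperone of chaperone-assisted selective autophagy at the Z-disc, read 11.05, 10.94, 11.02 and 11.07 in HCR sedentary rats and 11.25, 11.08, 11.09 and 11.11 in HCR trained rats. LCR rats read 11.37, 11.27, 11.32 and 11.36 when sedentary and 11.46, 11.37, 11.52 and 11.40 when trained. The lines were separate, and the difference of -0.31 ± 0.04 (adjusted p = 0.000923) was the same in sedentary and trained rats, with a difference between states from -0.17 to 0.17 (95% interval). Its call held in every alternative run. Hspb3, a small heat shock protein of muscle, differed by -0.36, the DNAJ protein Dnajb4 by -0.28 and Hsf1, the transcription factor of the heat shock response, by -0.22, and Bag2 was also called. The calls of Hspb3, Dnajb4 and Hsf1 held in 10, 3 and 6 of the 16 fits that left out a rat. With the interquartile range as a covariate, as after quantile normalization, 1 gene of the list was called, and leaving out single rats gave from 1 (without HCR sedentary rat 4 or 5 or LCR sedentary rat 6) to 10 (without LCR trained rat 2). With array quality weights or the replicate block 1 gene of the list was called higher. Unc45b, the myosin chaperone of striated muscle, lay outside the list and was chosen after its values were seen. It differed by -0.19 (adjusted p = 0.0229), with HCR rats at 10.02 to 10.19 and LCR rats at 10.25 to 10.46.

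Since these genes moved together, their RefSeq promoters (build GRCr8, 250 bases before to 50 after the gene start) were searched on both strands for the core motifs of the factors named above. The antioxidant response element core TGACNNNGC, which Nfe2l1 is known to bind, was in 0 of the 6 called proteasome promoters and in 12.1% of 33469 rat promoters. The heat shock element core GAANNTTC was in 1 of the 3 promoters found for the called chaperone genes (Hspb3, Bag3 and Bag2) and in 8.59% of all. The match was in Bag3 and starts at position -132 relative to the gene start. The 250 bases before the start of Bag3 lie on the plus strand at chr1:192533210-192533459 and are shown because Bag3 was the chaperone gene whose call held throughout, with the matching letters in capitals. A match is a description of letters and not a binding site, and no match says only that the letters are not in this window.
Bag3: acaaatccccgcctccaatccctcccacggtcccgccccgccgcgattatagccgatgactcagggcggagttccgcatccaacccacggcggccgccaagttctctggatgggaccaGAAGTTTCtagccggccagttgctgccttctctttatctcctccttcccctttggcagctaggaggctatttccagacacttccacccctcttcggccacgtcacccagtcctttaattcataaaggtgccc

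Cand2, a muscle-enriched regulator of cullin ubiquitin ligases, had the smallest adjusted p of the list of atrophy genes. HCR sedentary rats read 8.64, 8.64, 8.62 and 8.75 and HCR trained rats 8.56, 8.74, 8.69 and 8.76. In LCR the sedentary rats were at 9.05, 9.17, 9.18 and 9.28 and the trained rats at 9.02, 9.19, 9.21 and 9.06. No HCR rat reached an LCR rat, and the difference was -0.47 ± 0.05 (adjusted p = 7.78e-05), -0.51 in sedentary and -0.43 in trained rats. Of the 16 atrophy genes 13 were lower, against 7414 of all 14217 genes. In this list 4 genes were called, all lower (25.0% against 4.56% of all genes). The list's median was -0.33 in sedentary and -0.06 in trained rats. Ddit4, an inhibitor of mTORC1, differed by -0.53 but was not alike (-0.85 sedentary, -0.23 trained). The deubiquitinase Usp2 differed by -0.34 and the transcription factor Foxo4, not alike, by -0.17 (-0.23 sedentary, -0.11 trained), and their calls each held in 4 of the 16 fits that left out a rat. The list's count fell to 1, Cand2 alone being called throughout, without any 1 rat of the HCR or LCR sedentary groups, HCR trained rat 6 or LCR trained rat 4, and was 7 without LCR trained rat 2. Ddit4, Usp2 and Foxo4 were not called after quantile normalization, nor with the interquartile range as a covariate, while Cand2 was called in both. Among 25 genes of autophagy and lysosome 21 were lower, against 7414 of all 14217 genes. The protease Atg4b (-0.19) and the lysosomal hexosaminidase Hexa (-0.19) were called (8.0% of the list against 4.56% of all genes). Hexa was not alike (-0.28 sedentary, -0.10 trained), and its call held in 3 of the 16 fits that left out a rat. The autophagy and lysosome count was 0 after quantile normalization, with the interquartile range as a covariate and without HCR sedentary rat 4 or 5 or LCR sedentary rat 3, 5 or 6.

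**Figure D3:**
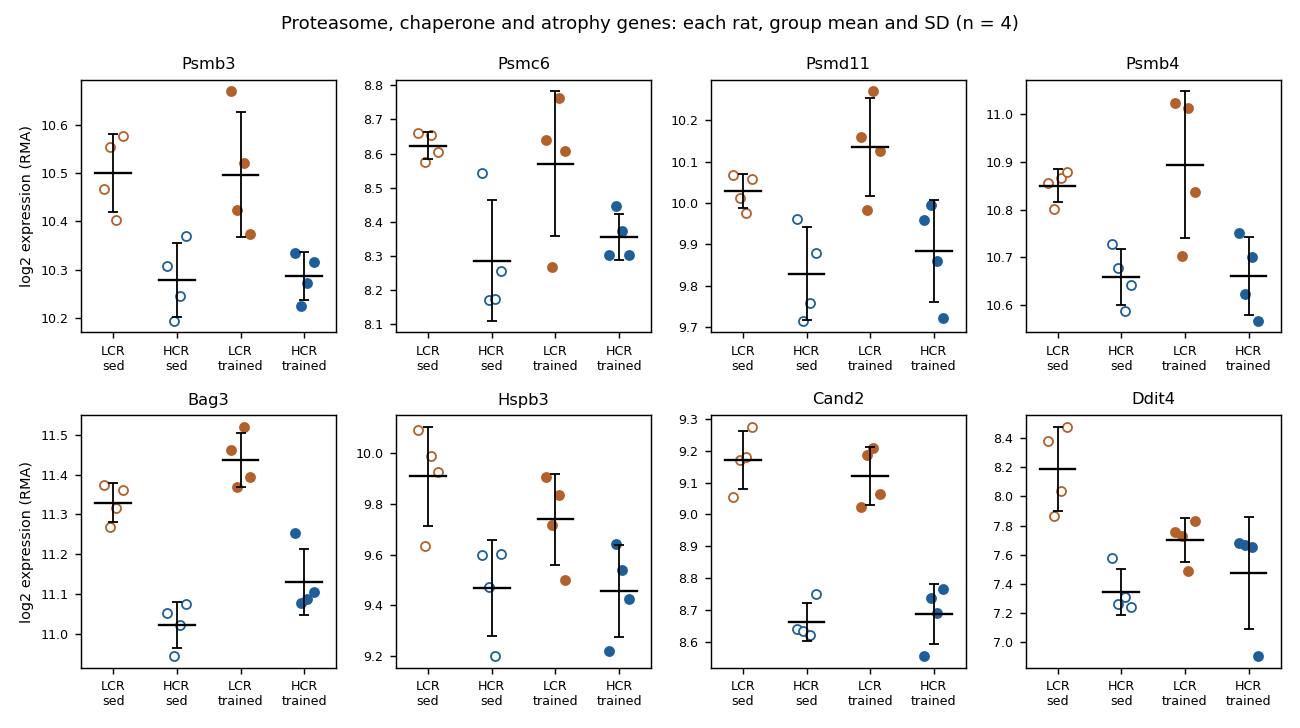
Log2 expression (RMA) of 4 proteasome genes (Psmb3, Psmc6, Psmd11, Psmb4), the chaperone genes Bag3 and Hspb3 and the atrophy genes Cand2 and Ddit4 in each rat, in panels with their own y axes. Points are rats, open for sedentary and filled for trained, with the group mean and SD (n = 4). Cand2 and Bag3 separate the lines in both states, Psmc6 overlaps, and Ddit4 differs less in trained than in sedentary rats.

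Of 33 genes of Golgi and vesicle tethering 28 had a lower value in HCR, against 7414 of all 14217 genes, with 4 called lower and 1 higher (15.2% of the list against 4.56% of all genes). The lower calls fell to 1 after quantile normalization, with the interquartile range as a covariate, or without HCR sedentary rat 4, 5 or 6 or LCR sedentary rat 5 or 6, and reached 7 without LCR trained rat 2. Vps50 (-0.27 ± 0.04, adjusted p = 0.00264), a subunit of the endosomal recycling complex EARP, had HCR levels from 6.48 to 6.71 and LCR levels from 6.77 to 6.96. The tethering subunit Vps41 (-0.21) and the TRAPP subunits Trappc1 (-0.16) and Trappc4 were also called, Vps41 and Trappc1 not alike. Vps52, a subunit that the GARP tether shares with EARP, was higher by 0.40 ± 0.07 (adjusted p = 0.0100). It was not alike (0.25 sedentary, 0.54 trained). Its other probe sets were higher by 0.46 and 0.20 with calls. The first of these was not alike (0.26 sedentary, 0.65 trained) and the second was alike (0.24 sedentary, 0.15 trained). Chosen after their values were seen, the SNARE gene Sec22b (-0.34), the coat subunit Sec13 (-0.19) and Ufd1 (-0.22), which helps to extract proteins from the endoplasmic reticulum for degradation, were called lower and alike. The Golgi stacking protein Gorasp2, chosen likewise, was called lower (-0.18) and not alike (-0.24 sedentary, -0.11 trained). The thiol oxidase Qsox1, also chosen after its values were seen, was higher by 0.35. A brighter probe set of Qsox1 differed by 0.30 without a call. None of the 22 genes of the endoplasmic reticulum stress response was called, with 6 at an unadjusted p under 0.05.

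Among microtubule and motor genes 3 of 29 were called lower and 1 higher (13.8% of the list against 4.56% of all genes). Klc1, a kinesin light chain, differed by -0.25 on its brightest called probe set (adjusted p = 0.0474) and by -1.03 ± 0.13 on a dimmer one (adjusted p = 0.000923), which was called in all 24 alternatives noted above. The other 2 probe sets of Klc1 differed by -0.12 and 0.03, so the probe sets of this gene report different sizes. Mapt, the microtubule protein tau, differed by -0.20 and was not alike, with a call in 5 of the 16 fits that left out a rat. The opposite directions of Myo5b and Map1a show that the group did not move one way, and its median was 0.01.

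The calls among genes of energy metabolism had a direction that differed between lists. Of 39 genes of fatty acid uptake and oxidation 24 were higher, against 6803 of all 14217 genes, with a median of 0.03. Acot2 and Eci1 were called higher and Slc27a1 lower (7.69% of the list against 4.56% of all genes). Acot2, a mitochondrial acyl-CoA thioesterase, read 7.11, 7.10, 7.11 and 7.23 in HCR sedentary rats and 7.19, 7.38, 6.96 and 7.16 in HCR trained rats. Levels in LCR were 6.57, 6.84, 6.93 and 6.86 in sedentary and 6.70, 6.74, 6.76 and 6.47 in trained rats. The lines were separate, by a narrow margin, and the difference was 0.42 ± 0.07 (adjusted p = 0.00423). On the brighter probe sets of Acot2 the difference was 0.20 and 0.03, without a call. The peroxisomal thioesterase Acot3, chosen after its values were seen, was higher by 0.50. It is a close paralog of Acot2, and probes of the pair may share targets. Eci1, an isomerase of unsaturated fatty acid oxidation, was higher by 0.29 on a dim probe set, and by 0.03 without a call on a brighter one. The fatty acid transporter Slc27a1 differed by -0.27 and was not alike (-0.18 sedentary, -0.36 trained). The calls of Eci1 and Slc27a1 held in 3 and 5 of the 16 fits that left out a rat.

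Glycolysis, glucose transport and glycogen held 4 called genes of 30, all lower in HCR (13.3% against 4.56% of all genes). Pfkp, a phosphofructokinase, differed by -0.39 ± 0.07 (adjusted p = 0.0112), from 7.00 to 7.53 in HCR and from 7.45 to 7.97 in LCR. Hexokinase 2 (Hk2) differed by -0.34, with -0.34 in both states, and Ugp2, which makes UDP-glucose for glycogen, by -0.29. Pfkfb2, the heart's regulator of phosphofructokinase through fructose 2,6-bisphosphate, differed by -0.67 on 1 probe set and was not alike, and 2 of its 3 other probe sets had the opposite sign without a call. The median of the list was -0.03, and 0 of its genes were called with the interquartile range as a covariate. In pyruvate entry and the TCA cycle the malate dehydrogenase Mdh1 (-0.43, against -0.08 without a call on its brighter probe set) and the pyruvate dehydrogenase component Pdhx (-0.30) were called among 28 genes. That is 7.14% of the list against 4.56% of all genes. The calls of Ugp2, Mdh1 and Pdhx held in 7, 5 and 3 of the 16 fits that left out a rat.

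Respiratory chain genes gave few calls. Of 39 complex I genes the assembly factor Ndufaf5 (-0.18, not alike) was called, and of 47 genes of complexes III to V Uqcc6 was, with medians of -0.04 and -0.02. These calls are 2.56% and 2.13% of the lists, against 4.56% of all genes. On their brightest probe sets 31 of the 39 and 30 of the 47 were lower in HCR, against 7414 of all 14217 genes. Genes of the mitochondrial ribosome were lower in 50 of 55, against 7414 of all 14217 genes, with a median of -0.10. In this list 4 were called lower (7.27% against 4.56% of all genes called). Mrpl45 differed by -0.45, Mrpl15 by -0.20, Mrps28, not alike (-0.29 sedentary, -0.11 trained), by -0.20 and Mrpl35 by -0.19, and Mrpl49, outside the list and chosen after its values were seen, by -0.26. The median of this list was -0.15 in sedentary and -0.04 in trained rats. None of the 4 was called after quantile normalization, with 11 lower calls after centring the arrays from 0 (without HCR sedentary rat 5, LCR sedentary rat 3 or 5 or LCR trained rat 3) to 14 (without LCR trained rat 2) over fits that left out a rat. Tfam, which packages and transcribes mitochondrial DNA, differed by -0.22. Coq9, of coenzyme Q synthesis, was called on a dim probe set (-0.49) that was not alike, while its brighter probe set differed by -0.11 without a call. Sod1, the cytosolic superoxide dismutase, had HCR levels from 12.29 to 12.49 and LCR levels from 12.56 to 12.73. It differed by -0.25 ± 0.04 (adjusted p = 0.00564), with -0.26 in sedentary and -0.25 in trained rats, and its call held in every alternative run. The mitochondrial glutaredoxin Glrx2, chosen after its values were seen, differed by -0.30.

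Contractile and calcium genes gave few calls. Of 13 cardiomyocyte markers none was called by limma, with 1 at an unadjusted p under 0.05 and a median of 0.00, and of 22 calcium cycling genes none was either, with 2 at an unadjusted p under 0.05. Among 24 sarcomere genes the Z-disc gene Ldb3 was called on a dim probe set (-0.29), and its brighter probe sets differed by -0.11 to 0.07 without a call. Beta myosin heavy chain (Myh7) differed by -0.16 ± 0.15 (adjusted p = 0.538) and skeletal actin (Acta1) by 0.29 ± 0.22 (adjusted p = 0.445), neither past the threshold. Acta1 changed sign between states, with -0.14 in sedentary and 0.72 in trained rats. Irx4, a transcription factor of ventricular identity chosen after its values were seen, differed by -0.49 ± 0.08 (adjusted p = 0.00693). Its HCR rats read 7.99 to 8.54 and its LCR rats 8.54 to 9.04, just without overlap. Of 28 ion channel genes Fgf12 and Kcnip2 were called higher and Kcnj11 lower (10.7% of the list against 4.56% of all genes). The potassium channel subunit gene Kcnip2 was higher by 0.17 on a dim probe set, while its brighter ones differed by -0.01 and -0.14. Kcnj11, the pore of the ATP-sensitive potassium channel, differed by -0.19 and was not alike (-0.26 sedentary, -0.12 trained). Thra, the thyroid hormone receptor alpha, chosen after its values were seen, was higher by 0.50 on a dim probe set and differed by -0.04 without a call on its brighter one. Creatine transporter Slc6a8 (-0.34) and the growth factor Nrg1 (0.31, on 1 of 8 probe sets, all positive) were also called. Adenylate kinase Ak4 was higher by 0.21 on a dim probe set and differed by -0.09 without a call on its brighter one. The calls of Kcnj11, Thra and Slc6a8 held in 7, 7 and 4 of the 16 fits that left out a rat.

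**Figure D4:**
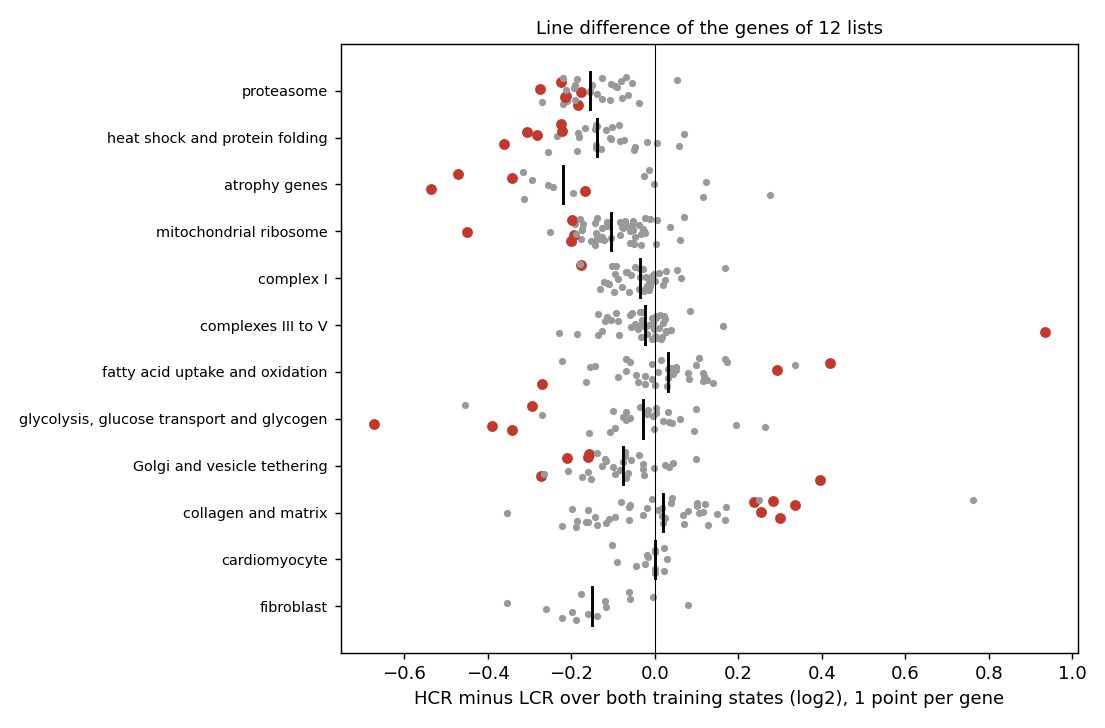
HCR minus LCR difference over both training states (log2) for each gene of 12 lists, 1 point per gene. Large red points are called genes, shown by their called probe set, small grey points the others by their brightest probe set, and black bars the list median on brightest probe sets. Proteasome, chaperone, atrophy and mitochondrial ribosome genes lie mostly left of 0, respiratory complexes and cardiomyocyte markers near 0, and all called matrix genes of the fit as reported to the right.

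Of 46 collagen and matrix genes 5 were called, all higher in HCR (10.9% against 4.56% of all genes). They were the collagen crosslinking enzyme Lox (0.34), the basement membrane collagen Col18a1 (0.30, not alike), the metalloproteinase inhibitors Timp4 (0.28) and Timp3, and the collagen-binding protein Sparc (0.25). A brighter probe set of Lox differed by 0.19 and a dimmer one of Sparc by 0.11, both without a call. Sparc read 11.58 to 11.97 in HCR and 11.45 to 11.75 in LCR, and Col18a1 6.62 to 6.84 in HCR and 6.09 to 6.54 in LCR. The calls of Lox and Timp4 held in 4 and 3 of the 16 fits that left out a rat. In the list 26 values were higher and 20 lower, against 6803 and 7414 of all 14217 genes, with a median of 0.02. A matrix gene was called lower after centring the arrays, with 1 mean per group, with 1 probe set per gene, with array quality weights, with the replicate block and without HCR trained rat 3 or LCR trained rat 1. The count of higher calls was 2 after centring the arrays, 2 with the interquartile range as a covariate and from 1 (without HCR sedentary rat 4 or LCR sedentary rat 5) to 8 (without LCR trained rat 2) over fits that left out a rat. Of 14 fibroblast markers 13 were lower, against 7414 of all 14217 genes. Among these markers 0 were called, with 5 at an unadjusted p under 0.05 and a median of -0.15. Their mean level ran from 8.92 to 9.15 in HCR and from 8.89 to 9.33 in LCR. Col1a1 (-0.19) and Col3a1 (-0.14) were not called. Acta2, the smooth muscle actin, was higher by 0.31 ± 0.06 (adjusted p = 0.0178), the 1 called gene of 12 markers of smooth muscle and pericytes, whose mean level ran from 7.88 to 8.05 in HCR and from 7.80 to 8.01 in LCR. Tgfb3 differed by -0.33 ± 0.05 (adjusted p = 0.00423). No endothelial marker (12), adipocyte marker (12), epicardial marker (7), lymphatic marker (7) or red cell marker (5) was called. In whole tissue fewer cells of a type and less RNA per cell cannot be told apart.

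Immune marker lists held both higher and lower values in HCR, with the counts given below. Klrd1, the CD94 receptor of natural killer cells, read 5.08, 4.95, 5.26 and 4.85 in HCR sedentary rats and 5.27, 4.59, 5.26 and 5.06 in HCR trained rats. LCR rats read 6.43, 5.28, 5.96 and 5.82 when sedentary and 5.81, 5.96, 5.86 and 6.08 when trained. All LCR rats lay above all HCR rats, LCR sedentary rat 3 by the least, and the difference was -0.86 ± 0.13 (adjusted p = 0.00264). Tyrobp, a signalling adaptor of natural killer and myeloid cells, differed by -0.31 ± 0.07 (adjusted p = 0.0289). Chosen after their values were seen, the adaptor Hcst (-0.50), the leukocyte actin regulator Coro1a (-0.50), the integrin Itgax (-0.47), the GTPase Rac2 (-0.46), Fgl2 (-0.40), the receptor Klrb1a (-0.39), Cd96 (-0.30) and the cytokine Ltb (-0.28) were called lower too. Because these genes were picked with their values known, their shared direction says nothing of immune genes at large. Rac2 read 7.32 to 7.77 in HCR and 7.74 to 8.33 in LCR. The marker lists gave less. Of 14 lymphocyte and natural killer cell markers Klrd1 was called lower and the B cell receptor gene Cd79b higher (0.22), and of 12 macrophage markers Tyrobp alone was called. These calls are 14.3% and 8.33% of the lists, against 4.56% of all genes. On their brightest probe sets 6 lymphocyte markers were higher and 8 lower, and 6 macrophage markers were higher and 6 lower. The lymphocyte list had a median of 0.05 in sedentary and -0.11 in trained rats. The mean level of the lymphocyte markers ran from 5.61 to 6.05 in HCR and from 5.78 to 6.20 in LCR, and that of the macrophage markers from 7.30 to 7.67 and from 7.33 to 7.92. RMA values have no 0, so no marker can be read as absent, and the part of leukocyte number in these differences was not tested. Among 30 interferon response genes Ifit1 was called (-0.56 ± 0.11, adjusted p = 0.0117).

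Genes of the rat major histocompatibility complex, RT1, differed strongly but unevenly. Of 23 measured genes of antigen presentation 4 were called lower and 1 higher (21.7% of the list against 4.56% of all genes). The class I gene RT1-CE10 read 6.79, 6.66, 7.79 and 7.28 in HCR sedentary rats and 7.18, 6.47, 8.00 and 6.53 in HCR trained rats. In LCR the sedentary rats were at 10.04, 7.25, 9.71 and 9.41 and the trained rats at 9.40, 7.22, 9.69 and 7.70. In LCR 5 rats were above 9 and 3 were within the HCR range, and the difference was -1.72 ± 0.41 (adjusted p = 0.0348). Its call held in 7 of the 16 fits that left out a rat. RT1-S3, a nonclassical class I gene, differed by -0.65 ± 0.17 (adjusted p = 0.0449), and its call held in 4 of those fits. Its other probe sets differed by -0.63 and -0.70 with calls and by 0.10 without. Erap1, which trims peptides for class I molecules, was called lower and Ciita, the master activator of class II genes, higher (0.24). RT1 genes are near-identical copies of each other and differ between rats, and the probe sets may read several of them.

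Of the 952 called probe sets 270 have no single gene symbol in the annotation used, 126 higher and 144 lower, and 202 of these were alike. They include the largest differences of all. Probe set 1370428_x_at, listed with 2 symbols, read 4.45 to 4.60 in 7 HCR rats, 9.52 in HCR trained rat 3 and 8.65 to 11.30 in the 8 LCR rats (-5.23 ± 0.58, adjusted p = 0.000276). HCR trained rat 3, which also lay with LCR at Clec3b, thus lay with LCR here. Probe set 1388202_at differed by -2.53, from 4.58 to 7.12 in HCR and from 5.93 to 9.52 in LCR. Probe sets 1373053_at and 1377774_at were higher in HCR by 3.04 and 2.99, with HCR rats at 9.57 to 11.29 and 8.52 to 11.07. On both, LCR trained rats 1 and 3 read high (9.85 and 9.70, then 9.64 and 8.73) and the other 6 LCR rats read 5.27 to 6.63. Differences of this kind, in which single rats take the level of the other line, were seen at named genes as well (HCR trained rat 3 at Clec3b, HCR sedentary rat 4 at Nfe2l1).

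Some called genes did not meet the rule of sizes in the 2 states, and no difference between states passed adjustment over all probe sets. Nppa, the atrial natriuretic peptide and a marker of cardiac load, read 11.71, 12.52, 11.28 and 12.20 in HCR sedentary rats and 11.60, 12.78, 11.70 and 12.46 in HCR trained rats. Levels in LCR were 11.63, 11.04, 11.03 and 11.38 in sedentary and 10.31, 10.77, 10.42 and 11.57 in trained rats. HCR rats were higher by 1.01 ± 0.23 (adjusted p = 0.0274) with overlap, by 0.66 in sedentary and 1.37 in trained rats (difference between states 0.72, 95% interval -0.21 to 1.65). Its relative Nppb was higher by 0.36 ± 0.13 and not called (adjusted p = 0.111). Of 8 atrial cardiomyocyte markers Nppa alone was called, and their mean level ran from 7.77 to 8.57 in HCR and from 7.61 to 8.25 in LCR. Cyp11a1, the side-chain cleavage enzyme that starts steroid synthesis, was higher by 0.75 ± 0.14 (adjusted p = 0.0117), by 0.40 in sedentary and 1.10 in trained rats. Its difference between states was 0.70 (95% interval 0.20 to 1.20, unadjusted p = 0.00897, limma). Idi1, of cholesterol synthesis, differed by -0.47 in the same list of 30 genes, whose median was -0.01. The class II gene RT1-Ba differed by -0.47 in sedentary and -1.88 in trained rats, and LCR sedentary rats 2 and 6 read 8.15 and 8.28 and all other LCR rats 9.70 to 10.88. HCR rats read 8.13 to 8.63. The call of RT1-Ba held in 9 of the 16 fits that left out a rat. Another of its probe sets differed by -1.36 with a call, and the 2 dimmest by 0.37 and 0.43 without one. The membrane protein Ano5 was higher by 0.71 (0.42 sedentary, 1.00 trained), and the tyrosine-degrading enzyme Hpd differed by -0.61 (-0.84 sedentary, -0.39 trained). For the difference between states the 95% interval was -0.19 to 1.35 at Ano5 and -0.16 to 1.06 at Hpd. The calls of Ano5 and Hpd held in 2 and 7 of those fits. Of the cell cycle list the inhibitor Cdkn1b (-0.29) and the mitotic kinase Bub1 (-0.17) were lower and alike.

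Genes often measured in the trained heart did not pass in this comparison. The angiogenic factor Vegfa differed by -0.08 ± 0.07, the pyruvate dehydrogenase kinase Pdk4 by 0.34 ± 0.23, the carnitine palmitoyltransferase Cpt1b by 0.08 ± 0.04 and the coactivator Ppargc1a by -0.11 ± 0.08, with adjusted p from 0.244 (Cpt1b) to 0.466 (Vegfa). A p that misses the threshold does not show that the lines have equal levels of these genes. Small calls among marker genes were Tnnt3 of fast skeletal muscle (0.20) and Chl1 of nerve cells (0.24, not alike). The transcription factor Crebl2 (-0.59), chosen after its values were seen, was not alike (-0.38 sedentary, -0.79 trained). It was at 6.01 to 6.28 in HCR and 6.51 to 7.49 in LCR on a dim probe set, and differed by -0.07 on a brighter one. Of 292 called genes with more than 1 probe set, 28 had another called in the same direction, 118 had one of opposite sign and 1 had one called in the opposite direction. Probe sets of opposite sign, without a call, differed by -0.01 at Enpep, 0.01 at Irx4 and -0.07 at Ciita. Likewise they differed by 0.02 at Cdkn1b and -0.004 at Tnnt3. Other probe sets are not given for every named gene.

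**Figure D5:**
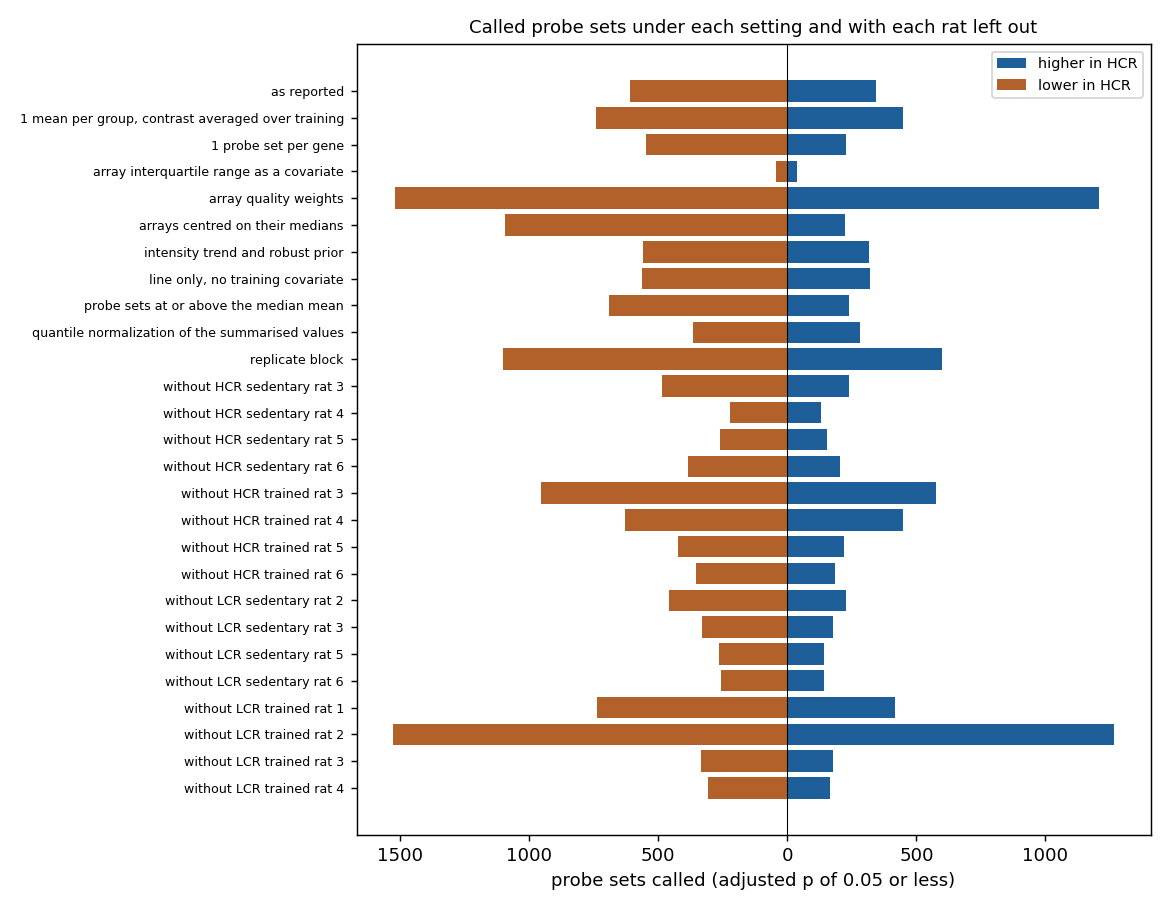
Number of called probe sets (limma, adjusted p of 0.05 or less), higher in HCR to the right and lower to the left, as reported, under 10 alternative settings and with each of the 16 rats left out. The count is lowest with the array interquartile range as a covariate (81) and highest without LCR trained rat 2 (2795).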

How the data were processed

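RNA from 16 left ventricles was measured on Affymetrix RAE 230 2.0 arrays, 4 rats per group, with groups taken from the sample titles. The deposited values, read here as log2, are expression levels the authors made with RMA (background correction, quantile normalization of perfect-match probes, linear model per probe set), per the submitters' processing notes and the design text of the series. No source used here gives the base, and log2 was assumed from their range of 3.24 to 14.54. Another base would leave signs and tests as they are but not folds. Per probe set, limma 3.58.1 in R 4.3.3 fitted line and training state additively (13 residual degrees of freedom, two-sided, Benjamini-Hochberg), with no filter. Differences within states came from 1 mean per group. The fit was tested on simulated data. Of 31042 probe sets 20826 had 1 gene symbol in the platform annotation, 436 several and 9780 none listed. A gene is represented by the called probe set of highest mean level, where it has none by that of highest mean, which also serves for list medians.

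Named are up to 15 called, alike genes of largest difference per direction, up to 4 called members of each list, the 3 largest called genes per direction that were not alike, and 14 preset genes. Of the preset genes, 3 (Myh6, Atp2a2 and Cs) were not called, differed by less than their standard error and are not described further. Members and lists were chosen with earlier results of these data known. Same-numbered rats of different groups had deviations that correlated at r from -0.23 to 0.34 over 16 pairs (median 0.04). Over 80 pairs of other numbers r ran from -0.41 to 0.46 (median -0.01). These correlations show no pairing by number but cannot exclude it, and the rats were treated as unpaired. Alternatives were another model, normalization, prior or filter, array weights, the interquartile range of arrays as a covariate, and each rat left out. The number of arrays limits the precision.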

Additional observations from a re-analysis of the deposited data

Results flagged for a closer look

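Within groups of 4 rats, 1 rat was flagged as apart from the other 3 in 29 of 524 groups examined over 131 genes. The rule was Dixon's criterion at its 95% critical value, where chance gives about 5%, and the count is close to that. It sets a gap against the group's range, so small gaps are flagged where the other 3 rats lie close together. All values are log2 levels, given for the rat and then for the other 3 of its group.

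Of genes higher in HCR, Nt5dc1 read 4.28 in LCR sedentary rat 3 (others 4.99 to 5.08) and 5.96 in LCR trained rat 1 (5.12 to 5.25). Pla2g12a read 8.65 in LCR sedentary rat 5 (7.66 to 7.71), and Ano5 9.76 in the same rat (8.90 to 9.02). Acot2 read 7.23 in HCR sedentary rat 6 (7.10 to 7.11). Nppb read 12.09 in LCR sedentary rat 2 (11.52 to 11.56).

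HCR trained rat 3 was flagged at 4 genes. It read 7.49 for Clec3b (5.93 to 6.07), 8.97 for Hexa (8.82 to 8.84), 11.25 for Bag3 (11.08 to 11.11) and 8.07 for Cdkn1b (8.35 to 8.38). The first 3 of these values are nearer to LCR than those of the other HCR trained rats.

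Of the other genes lower in HCR, Sqor read 7.96 in HCR trained rat 5 (7.78 to 7.80), Ddit4 6.90 in HCR trained rat 6 (7.65 to 7.68) and Cand2 8.75 in HCR sedentary rat 6 (8.62 to 8.64). RT1-Ba read 10.88 in LCR trained rat 4 (9.91 to 9.94). In HCR sedentary rat 5 Plgrkt read 6.82 (7.00 in the others), Hpd 6.43 (7.07 to 7.17) and Fgl2 6.88 (7.24 to 7.28). In HCR sedentary rat 4 Vps41 read 8.45 (8.64 to 8.67), Crebl2 6.10 (6.26 to 6.28) and Klrb1a 4.97 (4.56 to 4.62). In LCR trained rat 2 Vps50 read 6.77 (6.92 to 6.95), Irx4 8.60 (8.54 to 8.55) and Gorasp2 8.67 (8.76 to 8.77). Bub1 read 4.68 in HCR sedentary rat 3 (4.56 to 4.58) and 4.78 in LCR sedentary rat 3 (4.75). Cd96 read 4.89 in HCR sedentary rat 6 (5.06 to 5.07) and 5.11 in HCR trained rat 5 (5.06). Fgl2 also read 7.97 in LCR trained rat 4 (7.58 to 7.64).

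Xist read 4.54 in HCR sedentary rat 5, labelled female, against 9.08 to 9.87 in the other HCR sedentary rats.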

How the results depend on the processing

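Each alternative changed 1 choice, except that the intensity trend and the robust prior were set together. Against 952 called probe sets (344 higher, 608 lower, 708 alike), the interquartile range as a covariate gave 81 (36, 45 and 73). Array quality weights gave 2725 (1208, 1517 and 1788) and the replicate block 1701 (599, 1102 and 1288). The fit as reported does not pair rats by replicate number. Centring the arrays gave 224 higher and 1094 lower, quantile normalization 365 lower and 1 probe set per gene 228 higher. Leaving out each rat gave from 352 to 2795 called, 131 to 1267 higher, 221 to 1528 lower and 316 to 2053 alike. Counting as alike only probe sets whose lines did not overlap in either state gave 201. Other models, priors and the filter on dim probe sets kept the total within 1.5 times. The difference between states was called for 0 probe sets in every fit. The median difference over all probe sets lay between -0.03 and 0.02 in all settings. Xist, not called, turned to 0.48 with the interquartile range as a covariate and ran from -0.53 to 0.29 over the fits that left out a rat, the highest without HCR sedentary rat 5. The causes were not tested. With 4 arrays per group and dim probe sets near background, small differences are not resolved, and a covariate correlated with line takes up part of the line difference by construction.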
